A study of Mus musculus with 8 samples.

Results

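The 9 genes described here encode the enzymes that make histamine, serotonin and the catecholamines (Hdc, Tph1, Ddc, Th and Dbh), the vesicular transporters that load these amines into secretory granules (Slc18a1 and Slc18a2), and the monoamine oxidases that break amines down (Maoa and Maob). They were taken by gene symbol from an RNA sequencing table of 23361 genes, and all 9 were present. Expression was measured in 5 cancers of the gastric squamous-columnar junction (SCJ), where the forestomach meets the glandular stomach, and in the same junction of 3 control stomachs. The cancers, labelled Trp53-/-Rb1-/-, were dissected many months after tamoxifen from mice with loxP/loxP alleles of both Trp53 and Rb1, the Ai9 reporter and the Lgr5 eGFP-Ires-CreERT2 knock-in. In these mice Cre is driven by the Lgr5 locus, so both genes are deleted only in Lgr5-expressing cells and their progeny, which the Ai9 reporter marks with tdTomato. Each tumor was cut out along its tdTomato border and as bulk tissue may also hold host stroma, vessels and adjoining mucosa. The controls, labelled wild type, came from age-paired mice, so the floxed alleles, Cre and reporter differ between the groups together with the deletion. Whether these controls received tamoxifen is not given in the sources used here. The labels do not say whether each sample came from a separate mouse, and p-values measure the spread between these samples only.

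Expression is given as FPKM (fragments per kilobase of a gene's transcript, corrected for library size), rounded to whole numbers in the deposited table, so read depth is unknown and low values have few steps. An exact 0 can be a failed estimate: Pgc, the abundant pepsinogen of chief cells, had FPKM of 28832 in control 1 and was listed at 0 in controls 2 and 3. For that reason a gene without signal is described as listed at 0. FPKM summed to between 403569 and 573858 in the cancers and between 887141 and 992550 in the controls. Trp53 had FPKM of 12, 22, 12, 30 and 12 in cancers 1 to 5 against 16, 17 and 19 in controls 1 to 3, and Rb1 had 4, 4, 5, 6 and 4 against 9, 9 and 10. In limma Rb1 was lower in the cancers with FPKM (-0.90 in log2, adjusted p = 0.0059) but not with TPM (-0.05, adjusted p = 0.84, which is -0.86 from the median of all genes on that scale), and Trp53 did not pass with FPKM (-0.08, adjusted p = 0.87) but was higher with TPM (0.86, adjusted p = 0.020, which is 0.05 above that median). Exons inside and outside the deletions are not told apart by these values. The test, limma on log2(FPKM + 1), was run on the 14357 genes that reached 1 FPKM in 3 or more samples, and 4948 (34.5%) had an adjusted p under 0.05, 2326 higher (16.2%) and 2622 lower (18.3%) in the cancers. Without control 1, 2 or 3 the number called was 2490, 2643 or 2815. After rescaling every library to the same sum (TPM) the split was 7176 higher and 528 lower, and the median difference over all genes moved from -0.04 to 0.81 in log2. In such pieces of tissue, fewer cells of a type and less RNA per cell cannot be told apart.

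Histamine is made from histidine in 1 step, by histidine decarboxylase (Hdc). Serotonin and the catecholamines need a ring hydroxylation first, by tryptophan hydroxylase (Tph1 outside the brain) or tyrosine hydroxylase (Th), and aromatic L-amino acid decarboxylase (Ddc) then removes the carboxyl group of either product. Dopamine beta-hydroxylase (Dbh) turns dopamine into noradrenaline inside the granule. In the stomach, histamine is held by the enterochromaffin-like cells of the acid-secreting mucosa, where it stimulates parietal cells, and by mast cells, and serotonin is held by enterochromaffin cells. Neuroendocrine cells are also known for taking up and decarboxylating amine precursors, a trait that rests on Ddc.

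Of the 9 genes, 8 passed this filter on low values, and 2 of these, Ddc and Slc18a1, were higher in the cancers at an adjusted p under 0.05 in limma. Over all genes tested 34.5% were called, a share that depends on all 3 controls being present (2490 to 2815 genes called without 1 of them, in place of 4948). Slc18a1, like Tph1 and Th, was listed at 0 in every control and entered the test through the cancers alone, so its call is a description only, and Ddc was the 1 call among the other 5. With TPM 4 of the 8 were called, against 53.7% of all genes. The genes differed instead in kind. Ddc rose and was above the controls in all 5 cancers, Slc18a1 was at 2 to 12 FPKM in the cancers and at 0 in the controls, Hdc, Tph1 and Th were high in some cancers only, Slc18a2 did not rise, Dbh was listed at 0 throughout, and the monoamine oxidases moved little. No gene of the 9 was lower in every cancer than in every control, as 19.8% of tested genes were. For a gene listed at 0 in every control the text gives neither a fold change nor a p-value, and the plots of differences show its position only as one that depends on the added 1.

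**Figure D1:**
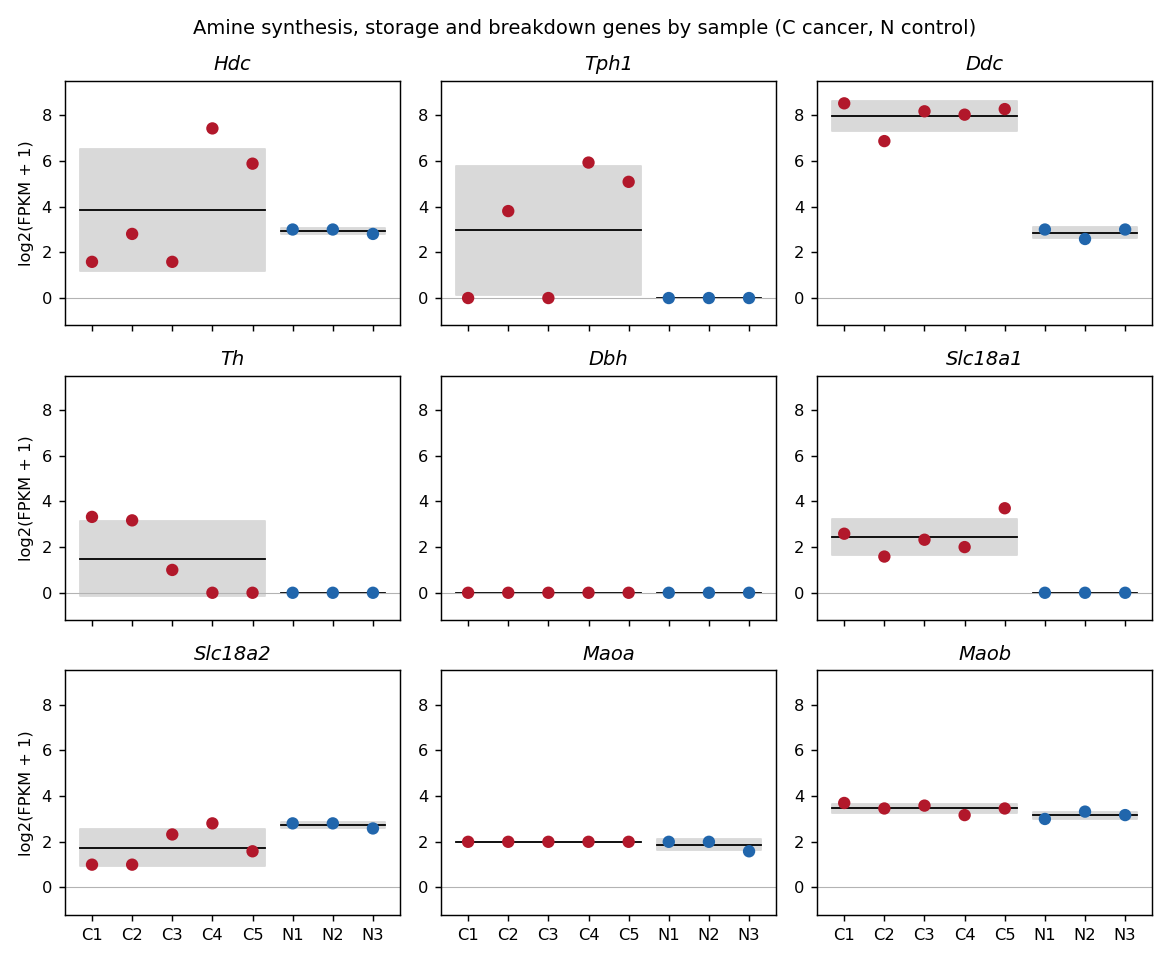
FPKM of the 9 genes in each sample on the log2(FPKM + 1) scale, with cancers 1 to 5 (C, red) and controls 1 to 3 (N, blue). Lines are group means and grey bands 1 SD. Ddc lies far above the controls in every cancer, whereas Hdc is above them only in cancers 4 and 5, Tph1 only in cancers 2, 4 and 5, and Th only in cancers 1, 2 and 3.

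Ddc (chromosome 11, 11814101 to 11898144 on the minus strand, mm10) had FPKM of 367, 116, 288, 260 and 308 in cancers 1 to 5 against 7, 5 and 7 in controls 1 to 3. The lowest cancer was thus far above the highest control, and the groups did not overlap, as for 14.4% of all tested genes with every cancer above every control. Mean FPKM was 268 ± 93.5 (SD, n = 5) in the cancers, up from 6.33 ± 1.15 (SD, n = 3). The log2 fold change was 5.11 (SE 0.36, adjusted p in limma 0.00041), 34.6-fold on the log2(FPKM + 1) scale. Including Ddc, 35 genes (0.244% of those tested) had a log2 fold change at least as large. It was 6.10 with TPM and 5.30 after quantile normalization, and stayed between 4.97 and 5.39 when each sample was left out in turn. Ddc alone made up 50.9% to 92.0% of the summed FPKM of the 9 genes in the cancers against 16.7% to 25.0% in the controls. Cancer 2 had the lowest Ddc of the cancers.

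Ddc has alternative first exons, and RefSeq places its transcription starts 7736 bases apart. Values per gene do not say from which start the transcripts of the cancers came, so both promoters are shown, each with 250 bases before and 50 from the first transcribed base, 5′ to 3′ along the gene (RefSeq, GRCm38.p6, minus strand). Capitals mark each TATAA or TGACG on either strand.
Ddc distal start, chr11:11898095-11898394: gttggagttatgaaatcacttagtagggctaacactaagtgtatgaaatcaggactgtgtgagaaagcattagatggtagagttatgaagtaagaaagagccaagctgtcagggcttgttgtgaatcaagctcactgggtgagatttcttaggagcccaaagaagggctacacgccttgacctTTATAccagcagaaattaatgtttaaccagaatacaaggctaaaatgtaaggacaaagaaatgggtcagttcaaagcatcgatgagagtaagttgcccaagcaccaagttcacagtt
Ddc proximal start, chr11:11890359-11890658: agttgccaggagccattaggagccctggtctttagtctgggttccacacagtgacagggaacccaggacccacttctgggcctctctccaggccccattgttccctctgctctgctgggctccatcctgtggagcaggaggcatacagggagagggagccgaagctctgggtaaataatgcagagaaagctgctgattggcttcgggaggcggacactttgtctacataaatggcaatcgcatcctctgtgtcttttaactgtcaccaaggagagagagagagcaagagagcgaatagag
The distal window was poorer in G and C (41.3%) than the proximal window (54.3%) and held 1 TATAA match, which 24.9% of 32851 promoter windows hold. Neither held TGACG, the core of the cyclic AMP response element, which 20.8% of windows hold. Matches to CANNTG, the E-box, and to GTTAAT, part of the HNF1 site, were also looked for on both strands in all windows, where 72.3% and 7.10% hold them, and neither Ddc window had any. A locus on the opposite strand, 1700042O10Rik (11868123 to 11885321), lies within Ddc and had FPKM of 0 to 2 in the cancers against 0 in the controls.

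By the smallest distance between centred log2(FPKM + 1) values over the 8 samples, among 9137 genes with a mean FPKM of at least 5, the pattern of Ddc was most like those of Etv1 (distance 0.73), Ttyh1 (0.75) and Snap25 (1.07). Etv1, a transcription factor of the ETS family, had FPKM of 107, 27, 115, 60 and 77 in the cancers against 1 in each control. Ttyh1, which encodes a membrane protein, had 38 to 122 against 1. Snap25, part of the vesicle fusion machinery, had 33 to 91 against 1 to 2. In each of them, picked for likeness over these same samples, cancer 2 was the lowest cancer, as for Ddc.

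Hdc (chromosome 2, 126593668 to 126618665, minus strand) had FPKM of 2, 6, 2, 171 and 58 in cancers 1 to 5 against 7, 7 and 6 in controls 1 to 3. Cancers 4 and 5 were above every control, cancers 1 and 3 below every control, and cancer 2 within their range. The highest cancer had 85.5 times the FPKM of the lowest. Of the 9 genes, Hdc and Tph1 differed by at least 10 times among the cancers (taking 1 for a lowest value of 0), as did 5.08% of the genes tested. For Hdc the SD of log2(FPKM + 1) was 2.66 (n = 5) in the cancers against 0.11 (n = 3) in the controls. The mean log2 fold change was 0.92 (SE 1.40, adjusted p in limma 0.62), so the groups did not differ beyond this spread. It fell to 0.029 without cancer 4.

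Tph1 (chromosome 7, 46644641 to 46672537, minus strand) had FPKM of 0, 13, 0, 60 and 33 in the cancers, with all 3 controls listed at 0. Cancers 2, 4 and 5 were above the controls and cancers 1 and 3 were not. Tph2, the hydroxylase of serotonin neurons, was listed at 0 in every sample. The cancers with the highest Hdc, 4 and 5, were also those with the highest Tph1, whereas cancer 2 had Tph1 without raised Hdc.

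Th (chromosome 7, 142892776 to 142899966, minus strand) had FPKM of 9, 8, 1, 0 and 0 in the cancers, with the controls listed at 0. It was highest in cancers 1 and 2 and at 0 in cancers 4 and 5, where Hdc and Tph1 were highest. Dbh (chromosome 2, 27165507 to 27183204, plus strand) was listed at 0 in all 8 samples, as was Pnmt, which makes adrenaline from noradrenaline, so no value above 0 was listed for either enzyme downstream of dopamine.

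The promoters of these 3 enzymes are shown because each was high in a different set of cancers. Windows, source and capitals are as for Ddc, and Tph1 has a pair of RefSeq starts 5160 bases apart.
Hdc, chr2:126618629-126618928: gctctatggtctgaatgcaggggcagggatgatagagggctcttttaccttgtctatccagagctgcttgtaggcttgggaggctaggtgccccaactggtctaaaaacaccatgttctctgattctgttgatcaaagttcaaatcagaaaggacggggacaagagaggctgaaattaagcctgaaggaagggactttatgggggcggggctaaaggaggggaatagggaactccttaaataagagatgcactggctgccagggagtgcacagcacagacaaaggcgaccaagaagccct
Tph1 distal start, chr7:46672488-46672787: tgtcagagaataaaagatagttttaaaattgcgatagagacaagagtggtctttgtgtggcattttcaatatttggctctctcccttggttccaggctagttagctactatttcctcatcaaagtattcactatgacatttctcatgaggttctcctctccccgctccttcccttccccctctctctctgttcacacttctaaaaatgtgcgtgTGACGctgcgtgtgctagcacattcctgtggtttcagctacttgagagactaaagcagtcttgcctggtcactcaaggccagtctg
Tph1 proximal start, chr7:46667328-46667627: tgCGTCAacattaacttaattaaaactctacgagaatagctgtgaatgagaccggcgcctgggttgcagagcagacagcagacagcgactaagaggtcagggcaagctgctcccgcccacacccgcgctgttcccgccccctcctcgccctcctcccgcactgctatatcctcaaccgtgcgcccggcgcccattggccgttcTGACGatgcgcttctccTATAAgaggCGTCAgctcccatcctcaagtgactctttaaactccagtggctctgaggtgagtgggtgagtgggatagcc
Th, chr7:142899946-142900245: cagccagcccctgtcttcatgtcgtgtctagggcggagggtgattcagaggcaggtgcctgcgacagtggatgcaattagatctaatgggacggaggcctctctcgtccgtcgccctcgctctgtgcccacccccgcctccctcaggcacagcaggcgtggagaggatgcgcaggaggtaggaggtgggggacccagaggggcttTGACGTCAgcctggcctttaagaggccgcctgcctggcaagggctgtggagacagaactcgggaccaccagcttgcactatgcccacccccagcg
TGACG was absent from the Hdc window, found once in the distal and 3 times in the proximal window of Tph1, and found in Th as a pair of overlapping matches on opposite strands at -45 and -42 from the start. The proximal Tph1 window also held TATAA at -30. The E-box motif had 1 match in the Hdc window (at -157), 1 in the proximal Tph1 window (at -5), 1 in Th (at -199) and none in the distal Tph1 window. GTTAAT had 1 match, in the proximal Tph1 window. Promoter windows were matched for 7 of the 9 genes, and Slc18a1 and Maob were without an entry.

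The genes most like Hdc in pattern were Wfdc1 (distance 1.54), Nov (1.94) and Pappa2 (2.55). Wfdc1, a secreted whey acidic protein family member, had FPKM of 0, 6, 1, 147 and 36 in the cancers against 6, 6 and 8 in the controls. Nov, a secreted matricellular protein also named Ccn3, had 217 and 15 in cancers 4 and 5, at most 5 in the others, and 4 in each control. Pappa2, a protease of insulin-like growth factor binding proteins, had 14 and 35 in cancers 4 and 5, 0 or 1 in the other cancers and 0 in the controls. For Tph1 the closest were Snhg11 (distance 2.79), Pappa2 (3.03) and Mmp10 (3.22), all farther away than the neighbours of Ddc.

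Slc18a1 and Slc18a2 encode the vesicular monoamine transporters VMAT1 and VMAT2, the former typical of enterochromaffin and chromaffin cells and the latter of enterochromaffin-like cells, mast cells, platelets and neurons. Slc18a1 (chromosome 8, 69037708 to 69113717, minus strand) had FPKM of 5, 2, 4, 3 and 12 in the cancers, with all 3 controls listed at 0. Every cancer was thus above every control, with cancer 5 the highest and cancer 2 the lowest. The Slc18a1 locus of the table takes in the whole of Atp6v1b2 (69088646 to 69113711), a proton pump subunit gene on the opposite strand. In RefSeq Slc18a1 ends at 69089238, so there it overlaps only a part of Atp6v1b2. Atp6v1b2 had FPKM of 60 to 126 in the cancers against 44 to 46 in the controls, where Slc18a1 was at 0. Whether the counting used strand is not given in the sources used here, and the part of Atp6v1b2 reads in the Slc18a1 values was not tested.

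The genes most like Slc18a1 in pattern were Il3ra (distance 0.45), Neurl1a (0.64) and 9330182L06Rik (0.72), each at 1 FPKM in every control. Il3ra, a subunit of the interleukin 3 receptor, had FPKM of 11, 6, 9, 10 and 29 in cancers 1 to 5. In all 3 genes, picked for likeness over these same samples, cancer 5 was the highest cancer, as for Slc18a1.

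Slc18a2 (chromosome 19, 59260878 to 59296012, plus strand) had FPKM of 1, 1, 4, 6 and 2 in the cancers against 6, 6 and 5 in the controls. Cancer 4 was within the range of the controls and the other 4 cancers were below it. The log2 fold change was -0.99 (SE 0.44, adjusted p in limma 0.11). It passed the threshold without cancer 4 (-1.26, adjusted p = 0.033 from limma), and with TPM it was -0.28, or -1.09 relative to the median of all genes on that scale. The 2 cancers with the most Hdc thus had Slc18a2 of 6 and 2 FPKM.

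Ratios of 4 pairs of members were computed within each sample from FPKM + 1, so where values are low they depend on the added 1. The log2 ratio of Slc18a1 to Slc18a2 was 1.58, 0.58, 0.00, -0.81 and 2.12 in cancers 1 to 5 against -2.81, -2.81 and -2.58 in the controls. The transcript of VMAT1 was at or above that of VMAT2 in cancers 1, 2, 3 and 5 and below it in cancer 4 and in all controls. Since Slc18a1 was at 0 in every control, the ratio there follows Slc18a2 alone and is given without a test, and the difference in means of 3.43 became 4.43 with 0.5 and 6.78 with 0.1 in place of 1. Likewise the log2 ratio of Tph1 to Hdc, from -1.58 to 1 in the cancers against -3.00 to -2.81 in the controls, follows Hdc alone wherever Tph1 was at 0, that is in cancers 1 and 3 and the controls.

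The log2 ratio of Hdc to Ddc, both above 0 in every sample, was -4.12 ± 2.71 (SD, n = 5) in the cancers against 0.074 ± 0.31 (SD, n = 3) in the controls. The groups did not overlap (exact permutation test over 56 splits, two-sided, p = 0.036, the smallest this design gives). The adjusted p of this exact permutation test was 0.048 over the 4 ratios, but that count takes in the 2 with a gene at 0 in every control. Over the other 2, an adjustment chosen after the data were seen, it was 0.071, which did not pass. It ranged from -6.94 in cancer 1 to -0.60 in cancer 4, so even in cancer 4 Hdc stood below Ddc, whereas the controls held both at near equal levels per length. The difference of -4.19 was -4.32 with 0.5 and -4.45 with 0.1 in place of 1, choices added after the data were seen.

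**Figure D2:**
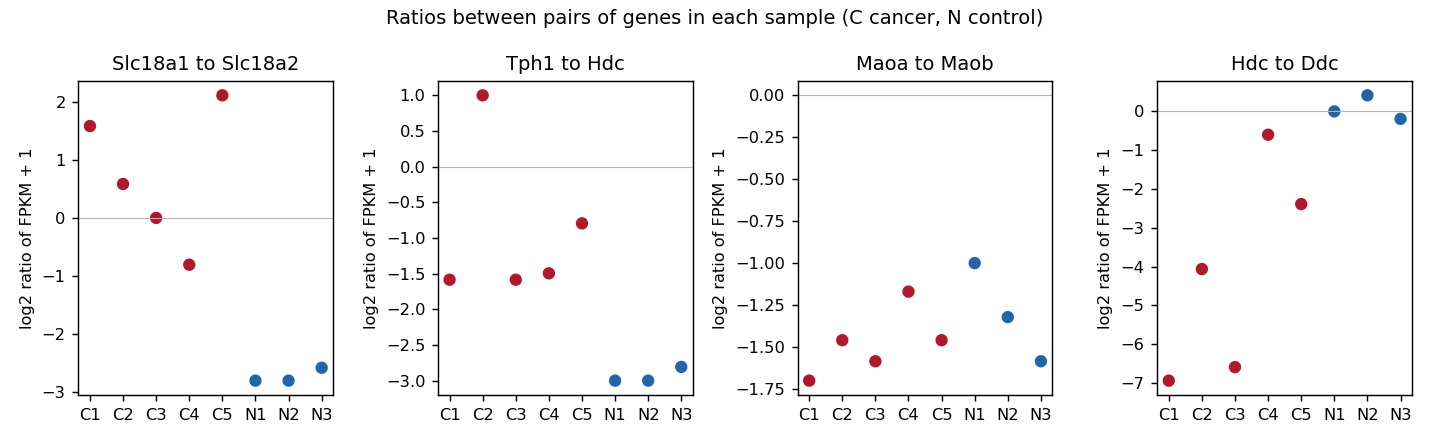
Log2 ratio of FPKM + 1 of 4 pairs of genes in each sample (C cancer, red; N control, blue), each panel on its own scale. The ratio of Slc18a1 to Slc18a2 lies between -0.81 and 2.12 in the cancers and between -2.81 and -2.58 in the controls, and that of Hdc to Ddc is lowest in cancers 1 (-6.94) and 3 (-6.59).

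Maoa and Maob encode the mitochondrial amine oxidases, of which the A form prefers serotonin and noradrenaline. They are neighbours on the X chromosome, 21468 bases apart and in opposite orientation (Maoa at 16619698 to 16687812 on the plus strand, Maob at 16709281 to 16817366 on the minus strand). Maoa had FPKM of 3 in each cancer and 3, 3 and 2 in the controls (limma, 0.14 ± 0.14 SE in log2, adjusted p = 0.46). Maob had 12, 10, 11, 8 and 10 in the cancers against 7, 9 and 8 in the controls, with 4 of 5 cancers above every control (limma, 0.31 ± 0.15 SE in log2, adjusted p = 0.15). With TPM both passed the threshold, at 0.94 (adjusted p = 0.013) and 1.23 (adjusted p = 0.0058) in limma, but the median of all genes then stood at 0.81, so relative to it Maoa was higher by 0.13 and Maob by 0.42. After quantile normalization Maoa stood at -0.19. The log2 ratio of Maoa to Maob did not pass the test (-1.47 ± 0.20, n = 5, against -1.30 ± 0.29, n = 3, SD; exact permutation p = 0.36). Xist, transcribed from the inactive X chromosome, was listed at 0 in cancers 3 and 4 and control 1 and had 14 to 36 in the other samples. Control 2 had Xist of 16 together with 6 of the Y-linked Eif2s3y. In the 3 samples without Xist, Maob was 11 in cancer 3, 8 in cancer 4 and 7 in control 1, against 8 to 12 in the other 5, and Maoa was 3 in each. The closest patterns to Maob, those of Ecd (distance 0.22), Sart3 (0.22) and Bace1 (0.25), were as flat, with Bace1, a protease, at 5 to 9 in the cancers and 5 to 7 in the controls.

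**Figure D3:**
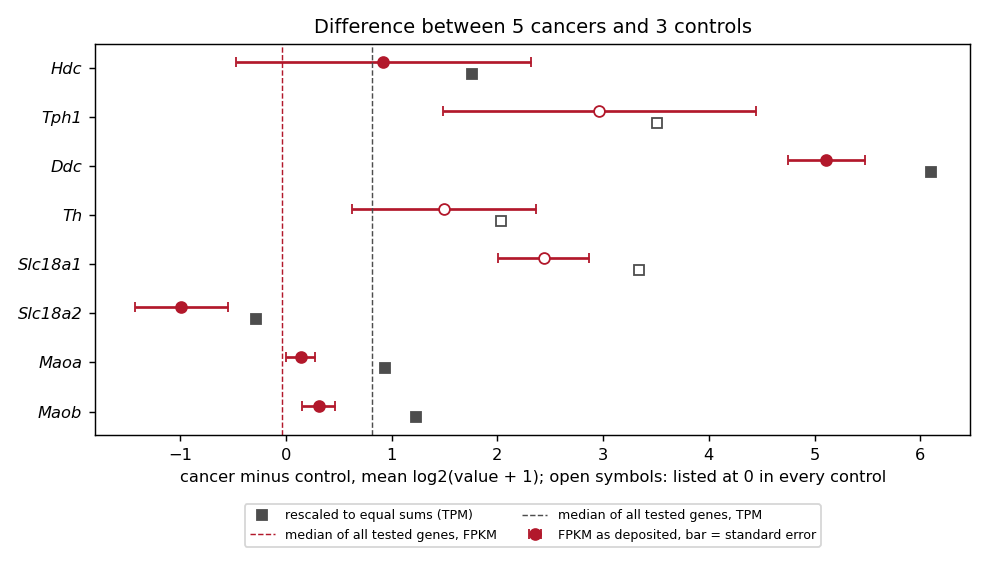
Difference in mean log2(value + 1) between 5 cancers and 3 controls for the 8 genes tested, from FPKM (red, bars are standard errors from limma) and from TPM (grey). Open symbols are genes listed at 0 in every control, whose position depends on the added 1, and dashed lines are the medians of all tested genes (-0.04 and 0.81). Ddc lies farthest to the right at 5.11, and Slc18a2 alone lies to the left of 0, at -0.99.

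The other genes of the 3 pathways were counted beside these members. Of 8 other histamine genes, 4 were tested, with 0 higher and 2 lower in limma. Hrh2, the histamine receptor of parietal cells, had FPKM of 1, 1, 0, 3 and 1 in the cancers against 10, 12 and 15 in the controls (limma, -2.72 in log2, adjusted p = 0.0033), and fell also with TPM (-2.27, adjusted p = 0.0079 in limma). Aldh2, which oxidizes aldehydes made in amine breakdown, fell by 1.75 on the log2 scale (adjusted p = 0.047 from limma), whereas with TPM it did not pass (-0.80, adjusted p = 0.15 in limma), at -1.61 relative to the median of all genes. Hnmt, which methylates histamine, had 1 to 4 FPKM in the cancers against 3 in each control, and Abp1, the diamine oxidase gene also named Aoc1, was listed at 0. Of 14 other serotonin genes 12 were listed at 0 in every sample, among them Slc6a4, which takes up serotonin, and the other 2 (Htr2b and Htr3a) had at most 1 FPKM.

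Of 21 other catecholamine genes, 9 were tested, with 2 higher (1 of them, Drd2, at 0 in every control) and 0 lower. With TPM 5 were higher, on a scale on which 7176 of the 14357 genes tested were higher. Of these 5, Drd2 and Adra1a were at 0 in every control. After quantile normalization only Drd2 was higher, with 0 lower under either scaling. Drd2, a dopamine receptor, had FPKM of 5, 3, 3, 3 and 6 in the cancers, with the controls listed at 0. Adra2a, an adrenergic receptor, had 1, 5, 1, 2 and 3 against 0, 0 and 1 (limma, 1.30 in log2, adjusted p = 0.049), and was not past the threshold after quantile normalization (adjusted p = 0.19). Cyb561, the granule membrane cytochrome that supplies electrons for Dbh, had 42 to 82 against 43 to 53 (adjusted p = 0.61 from limma). With TPM it passed the threshold (1.12 in log2, adjusted p = 0.0067 in limma), which is 0.31 above the median of all genes on that scale.

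Hydroxylases of this family need tetrahydrobiopterin and the decarboxylases pyridoxal phosphate. Of the 11 genes that supply these cofactors, all tested, 5 were higher (1 of them, Gchfr, at 0 in every control) and 2 lower in limma, with a median of 0.41 in log2 against -0.04 over all genes. With TPM 7 were higher (Gchfr included) and 0 lower, a scale on which 7176 of all genes were higher, and after quantile normalization 3 were higher and 0 lower. Qdpr, which regenerates tetrahydrobiopterin, had FPKM of 218, 113, 171, 133 and 136 in the cancers against 29, 37 and 35 in the controls (limma, 2.13 ± 0.23 SE in log2, adjusted p = 0.0011). Gch1, the first and rate-limiting enzyme of its synthesis, had 58, 36, 38, 30 and 71 against 30, 11 and 9, so that cancer 4 equalled the highest control (limma, 1.55 ± 0.43 SE in log2, adjusted p = 0.028). Gchfr, the feedback regulator of Gch1, had 1 to 2 in the cancers, with the controls listed at 0. Pdxp, a phosphatase of pyridoxal phosphate, had 2 to 8 against 1 to 2 (limma, 1.10 in log2, adjusted p = 0.045). Spr, the last enzyme of tetrahydrobiopterin synthesis, fell by 1.04 on the log2 scale (adjusted p = 0.029 from limma), whereas it did not pass with TPM (-0.08, or -0.89 relative to the median of all genes) or after quantile normalization (-0.64). Qdpr and Gch1 passed under each of these scalings, and Pdxp did not after quantile normalization (adjusted p = 0.15 in limma).

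**Figure D4:**
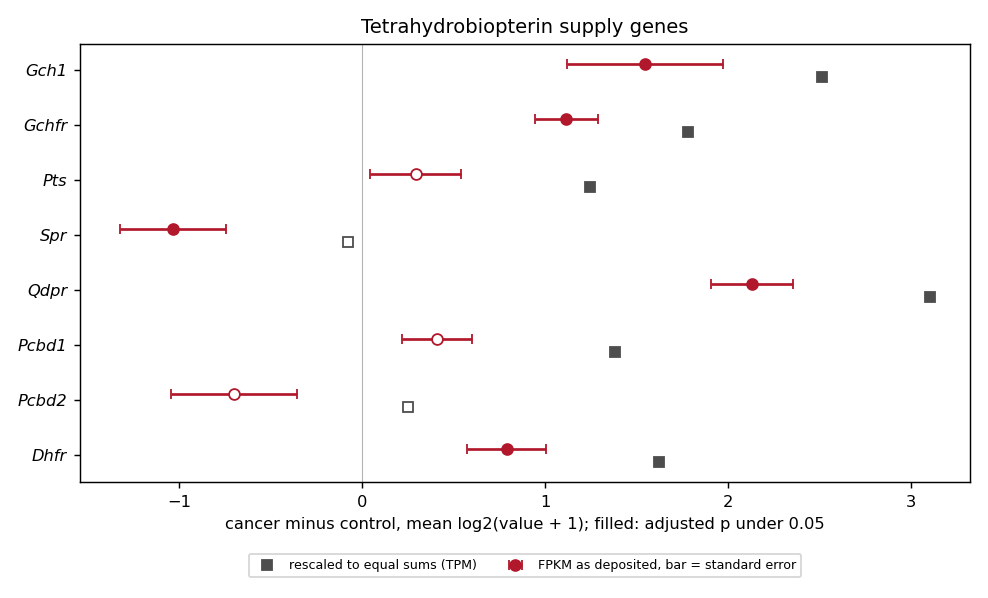
Difference in mean log2(value + 1) between 5 cancers and 3 controls for 8 genes of tetrahydrobiopterin synthesis and recycling, from FPKM (red, bars are standard errors from limma) and TPM (grey). Filled symbols have an adjusted p under 0.05, and Gchfr was listed at 0 in every control, so that its position depends on the added 1. Qdpr (2.13) and Gch1 (1.55) lie farthest to the right, and Spr lies left of 0 with FPKM (-1.04) and near 0 with TPM (-0.08).

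Hdc and Tph1 are also expressed by mast cells in mice, and Hdc and Slc18a2 by enterochromaffin-like cells of normal mucosa, so marker genes of these and other cells were read beside them. Of 14 mast cell and basophil markers, 10 were tested, with 5 lower and 1 higher in limma, and 4 lower and 2 higher with TPM. Tpsab1, a mast cell tryptase, had FPKM of 0, 2, 1, 1 and 0 in the cancers against 13, 21 and 12 in the controls, and Cpa3, the mast cell carboxypeptidase, 0, 1, 0, 0 and 0 against 6, 6 and 2. Tpsb2, Cma1 and Cpa3 were listed at 0 in cancers 4 and 5, the cancers with Hdc of 171 and 58. Mcpt4, the other gene lower, had 0 to 2 in the cancers and 4 to 7 in the controls, and did not pass with TPM (adjusted p = 0.051 in limma). Mcpt2, a protease of mucosal mast cells, had 0, 20, 2, 12 and 28 in cancers 1 to 5 and 35, 31 and 16 in the controls. It was thus at 12 or more in cancers 2, 4 and 5, which held Tph1, and at 0 and 2 in cancers 1 and 3, which did not, although the controls had Mcpt2 with Tph1 at 0. Mcpt1, of the same cells, had 0, 3, 1, 1 and 4 against 11, 4 and 2. Cancers 4 and 5 thus had Mcpt2 of 12 and 28 and Mcpt1 of 1 and 4 beside their Hdc of 171 and 58. The part of mast cell RNA in Hdc and Tph1 was not tested. The higher gene was Kit (16 to 51 against 7 to 13), which other cells express as well. The summed FPKM of the list was 34 to 86 in the cancers against 60 to 95 in the controls.

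Parietal cell and other gastric gland markers were lower on average in the cancers (median -4.50 in log2), although only Gkn1 of 10 passed the test, and it did not after quantile normalization (adjusted p = 0.23 in limma). Atp4a, a subunit of the parietal cell proton pump, had FPKM of 0, 370, 66, 810 and 67 in the cancers against 1643, 3437 and 3572 in the controls. Cancers 4 and 5 thus exceeded every control in Hdc while lying below every control in Atp4a. Of 8 squamous epithelium markers, 1 (Krt4) was lower in limma with FPKM and none with TPM (Krt4 adjusted p = 0.056), and none was higher. In cancer 4 alone, Krt5 (574), Krt14 (403), Krt15 (39), Trp63 (21) and Dsg3 (18) were above every control. Summed FPKM of the gland list was 694, 78716, 6015, 55566 and 16662 in cancers 1 to 5 and 158537 to 240752 in the controls, so cancers 2, 4 and 5, which held Tph1, had the highest sums among the cancers. The squamous list summed to 0, 26, 309, 1648 and 488 in the cancers and 1556 to 2599 in the controls, with cancer 4, which had the most Hdc and Tph1, the highest cancer. The part of this mucosa in the Hdc and Tph1 values was not tested. Cckbr, the gastrin receptor of enterochromaffin-like cells, had 3, 1, 0, 5 and 1 in the cancers against 4, 7 and 9 in the controls (limma, -1.56 in log2, adjusted p = 0.065).

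Of the 10 enterochromaffin-like cell markers, 7 were higher (1 of them, Pax6, at 0 in every control) and 0 lower in limma and the 3 others were Hdc, Slc18a2 and Cckbr. The 7 (Chga, Chgb, Syp, Pcsk1, Ptprn, Scg5 and Pax6) are shared by many endocrine cells. Of the 12 enterochromaffin cell markers 8 were higher and 0 lower, and 5 were higher after quantile normalization. Of the 8, Slc18a1, Fev, Slc38a11 and Piezo2 were at 0 in every control. Fev, a transcription factor of serotonin cells, had FPKM of 29, 13, 72, 20 and 20 in the cancers, with the controls listed at 0, so it was present also in cancers 1 and 3, where Tph1 was at 0. Trpa1, an irritant-sensing channel, had 10, 3, 17, 7 and 7 against 1, 0 and 0 (limma, 2.79 in log2, adjusted p = 0.0055). Tac1, the tachykinin precursor gene, had 14 and 22 in cancers 1 and 2 and 1 to 4 in the others, against 1 to 2 in the controls. Lmx1a, another factor of these cells, was listed at 0 throughout. Set against chromogranin A, a general granule protein, Ddc had 20.4 to 51.1 FPKM per 1000 FPKM of Chga in the cancers against 32.9 to 64.8 in the controls, which overlap. Hdc had 0.18 to 13.4 against 44.8 to 64.8, and Slc18a2 0.14 to 0.47 against 37.3 to 55.6. These quotients were chosen after the values were seen and were not tested.

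**Figure D5:**
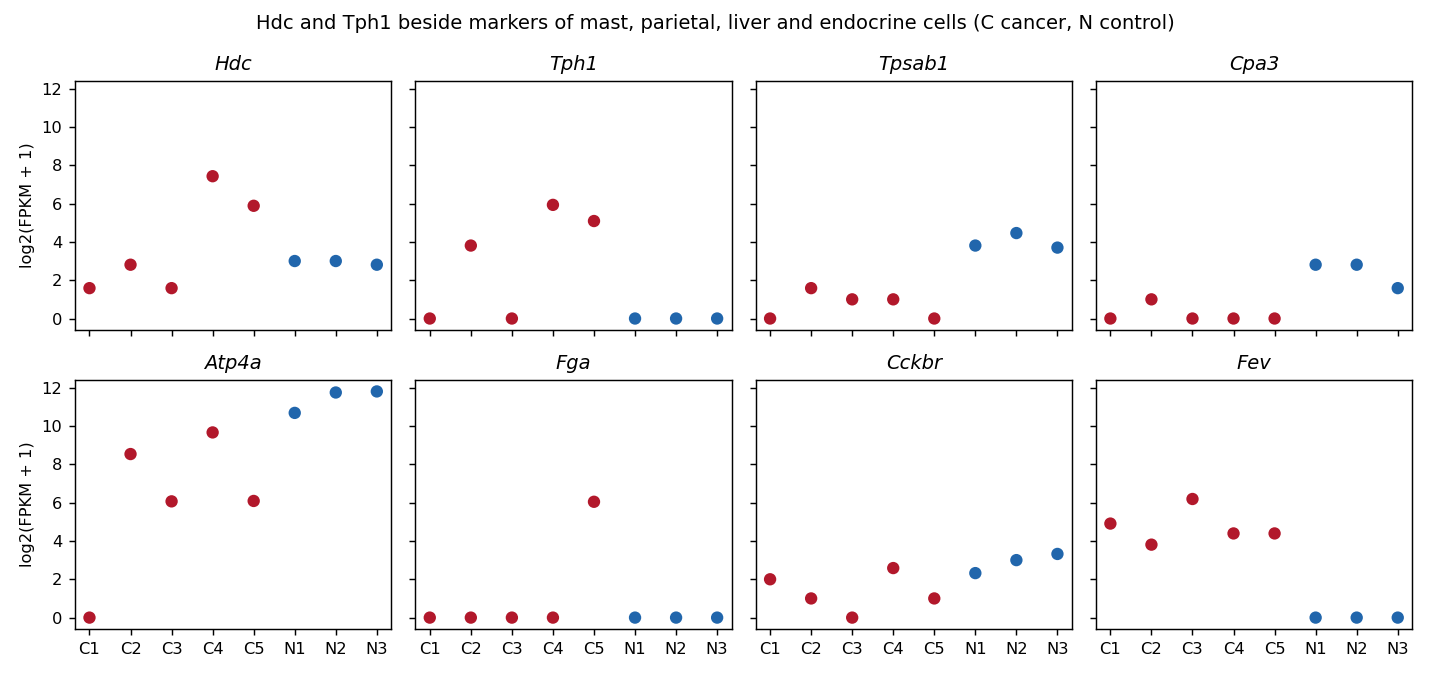
Log2(FPKM + 1) of Hdc and Tph1 in each sample (C cancer, red; N control, blue) beside Tpsab1 and Cpa3 (mast cells), Atp4a (parietal cells), Fga (hepatocytes), Cckbr (enterochromaffin-like cells) and Fev (serotonin cells). Tpsab1, Cpa3 and Atp4a are lower in every cancer than in every control, while Hdc is highest in cancers 4 and 5 and Fga is above 0 in cancer 5 alone.

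For the catecholamine enzymes, chromaffin and sympathetic cell markers were read. Phox2a, Hand1, Slc6a2, Pnmt and Dbh were listed at 0 in every sample, including cancers 1 and 2, which held Th. Of the 14 genes 8 were tested, with 2 higher (Isl1 and, at 0 in every control, Slc18a1) and 1 lower (Gata3, at 0 to 1 against 1 in each control, which did not pass with TPM), and with TPM 3 were higher and 0 lower. Isl1, a transcription factor of many endocrine and neural cells, had FPKM of 40, 18, 32, 11 and 8 against 3, 4 and 5. Hand2, a transcription factor of sympathetic neurons and of some mesenchymal cells, had 0, 12, 3, 3 and 2 against 3, 2 and 1, and Penk, the enkephalin precursor gene, 0, 5, 2, 2 and 1 against 2 in each control, so both were above every control in cancer 2, which held Th, and at 0 in cancer 1, which held it too. Penk was named after its values were seen. Npy, a neuropeptide, had 193 and 37 in cancers 1 and 3 and 1 to 7 in all other samples. Of the 8 adrenal cortex markers, 5 were listed at 0 throughout, Cyp11a1 was at 0 in the cancers and 1 in each control, and the summed FPKM was 1 to 4 in the cancers against 2 to 4 in the controls. Of the 14 enteric neuron markers, 4 (Ret, Uchl1, Snap25 and, at 0 in every control, Elavl4) were higher in limma, and Chat, Slc18a3 and Sox10 were listed at 0 throughout. Vip, a neuropeptide of enteric neurons, had 0, 25, 5, 9 and 1 against 5, 4 and 2, highest in cancer 2. The part of chromaffin, sympathetic or enteric neuron RNA in the Th values was not tested.

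Liver also expresses Ddc, and hepatocyte markers were therefore examined. Fga, the fibrinogen alpha chain, had FPKM of 65 in cancer 5 and was listed at 0 in all other samples, and Hpx, hemopexin, had 385 there and at most 17 elsewhere. Of the 14 genes 8 were tested, with 3 higher (1 of them, Tat, at 0 in every control) and 0 lower in limma. With TPM 5 were higher, on a scale on which 7176 of the 14357 genes tested were higher. Alb, at 16, 18, 58, 1 and 266 against 1 in each control, also passed there (adjusted p = 0.025 in limma). So did Ambp, at 3, 3, 3, 4 and 30 against 1, 1 and 2 (adjusted p = 0.028 in limma). Relative to the median of all genes on that scale, Alb stood at 3.77 and Ambp at 1.51. Ambp was named after its values were seen. The first 3 were high in every cancer: Ahsg had 492 to 2886 against 1 to 2 in the controls, Ttr 455 to 2011 against 66 to 94, and Tat 6 to 34 against 0. The summed FPKM of the list was 4458, 1569, 1964, 1191 and 4432 in cancers 1 to 5 and 72 to 102 in the controls. Without cancer 5 the log2 fold change of Ddc was 5.04 (adjusted p = 0.00076 from limma). Ddc was highest, at 367, in cancer 1, which also had the highest sum of this list, with Ahsg at 2386, Ttr at 2011, Fgb at 20, Alb at 16 and Fga at 0. Cyp2e1, also named after its values were seen, was at 9 in cancer 1, 10 in cancer 5 and 0 in all other samples. Hdc of 58, Tph1 of 33 and Slc18a1 of 12 in cancer 5 stand beside its Fga and Hpx. The part of liver RNA in these values was not tested.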

How the data were processed

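RNA of 5 SCJ cancers and 3 control SCJ tissues was sequenced from poly(A)-selected, directional libraries. The authors trimmed reads with cutadapt 1.8 and quantified UCSC mm10 genes with cuffquant and Cuffnorm 2.2.1, and their processing notes also name TopHat2 2.0.13. The deposited values are FPKM rounded to whole numbers by the authors, which are handled here as a score, since they hold no read counts. Because depth is unknown, no counting intervals are given.

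The 14357 genes that reached 1 FPKM in 3 or more samples were compared with limma 3.58.1 (R 4.3.3; moderated variances with a mean trend) after adding 1 and taking log2. P-values were adjusted over these genes by Benjamini-Hochberg, at a threshold of 0.05. Fold changes are on this scale and understate those of low genes. The fit was tested on simulated data. Ratios were compared by two-sided exact permutation tests over 56 splits (scipy 1.17.1). Alternatives were pseudocounts of 0.1 and 0.01, filters (every gene above 0, or a mean FPKM of at least 5), TPM (each library rescaled to the same sum), quantile normalization, array weights, no mean trend, a block for replicate number, and each sample left out. A further alternative, for each member, was an exact permutation test with unadjusted p in place of limma.

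The members, and 17 lists of pathway and cell type genes, were chosen with earlier results of these data known. All 206 list entries were matched, 2 by an older symbol. Named are the members, the list genes past the threshold (up to 6, otherwise the 4 with the largest change), up to 3 more per list by level, defining markers at or near 0, and the 3 genes closest in pattern to each member that reached 10 FPKM. Promoters came from RefSeq (GRCm38.p6), and protein sequences were not used here. A few genes of the lists are counted but not reported singly here. Loci are those of the table, with starts counted from 1.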

Additional observations from a re-analysis of the deposited data

Results flagged for a closer look

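Among 28 results checked for a cancer far from the others, 3 stood out, where chance gives about 1 in 20 (1.4 of 28). All 3 were the low sum of a list in cancer 2, and the lists share genes (Chga and Chgb in the last 2 below, Tph1 and Slc18a1 in the first and last, Slc18a2 in the first 2), so they are not independent. The summed FPKM of the serotonin genes was 136 in cancer 2 and 300 to 376 in the other cancers (a gap of 0.778 of the range on the log2 scale). That of the enterochromaffin-like cell markers was 8419 against 16161 to 18806 (0.811), and that of the enterochromaffin cell markers 7563 against 14248 to 16666 (0.802). Cancer 2 also had the highest sum of gastric gland markers among the cancers, 78716 against 694 to 55566. The part of gland RNA in these gaps was not tested.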

How the results depend on the processing

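Over 134 values of the 8 members tested under the alternatives, 128 neither crossed the threshold nor changed sign (Maoa was 0.0 without control 3), 4 passed only under an alternative (Maoa and Maob with TPM, Slc18a2 with array weights or without cancer 4) and 2 changed sign. Hdc was -0.94 with the replicate block, which fits the 3 numbers shared by both groups (adjusted p = 0.14 from limma), and Maoa was -0.19 after quantile normalization (adjusted p = 0.41). Ddc passed under all alternatives, the block included (adjusted p = 0.029 from limma). The exact permutation test among them was not adjusted over genes, and its p of 0.036 for Ddc is the smallest this design gives. Slc18a1, at 0 in every control, was also called wherever it was tested, which is no support, since the filter selected it through the cancers. With a mean FPKM of at least 5, Slc18a1 was not tested, 1 member was called and genes higher numbered 1244. With TPM 4 members were called, and with it 7704 genes changed, 7176 higher and 528 lower. Array weights gave 8148 (3909 higher, 4239 lower). The replicate block gave 1534 (982 higher, 552 lower). Deviations of same-numbered samples from their group means had correlations of -0.02, -0.19 and -0.10. Such correlations over few samples cannot settle whether the numbers pair the samples, and the labels do not say. When each sample was left out, genes changed ran from 2490 to 5252, higher from 1369 to 2466 and lower from 1121 to 2786, with 2490, 2643 and 2815 changed without control 1, 2 and 3, and 1702 lower without cancer 3. The cause was not tested. The Hdc to Ddc ratio no longer passed when adjusted over the 2 ratios above 0 in both groups (exact permutation, adjusted p = 0.071). Rounding leaves values of 0 to 3 FPKM, such as Maoa, Th and Slc18a1 in some cancers, with steps as large as the values themselves.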

Other observations

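Enzymes and transporters related to these genes by family, but serving other transmitters, were read as well. Gad2, which makes GABA from glutamate, had FPKM of 30, 3, 9, 4 and 17 in cancers 1 to 5 and was listed at 0 in all 3 controls, while Gad1 was listed at 0 throughout. Of the 7 enzymes of that list 3 were tested, and the 1 called in limma was Gad2, which entered the test through the cancers alone. Odc1, which starts polyamine synthesis, had 65 to 107 in the cancers and 80 to 100 in the controls (limma, -0.03 in log2, adjusted p = 0.91). With TPM all 3 tested genes of the list passed, Odc1 among them (0.94, adjusted p = 0.028 in limma, which is 0.13 above the median of all genes).

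Among 7 vesicular transporters of other transmitters, Slc17a9, which carries ATP, had FPKM of 22, 9, 20, 5 and 7 in the cancers against 2, 2 and 3 in the controls (limma, 1.84 in log2, adjusted p = 0.021). Slc18b1, a polyamine transporter, fell by 1.14 on the log2 scale (adjusted p = 0.021 from limma), and also passed after quantile normalization (-1.18, adjusted p = 0.035 in limma). With TPM it did not pass (-0.33, adjusted p = 0.32 in limma), at -1.14 relative to the median of all genes. The acetylcholine (Slc18a3) and GABA (Slc32a1) transporters were listed at 0 throughout. The 6 platelet markers, read because platelets store serotonin, summed to 5 to 19 FPKM in the cancers and 3 to 7 in the controls, and none of the 3 tested passed in limma with FPKM (0 at an unadjusted p under 0.05), while with TPM Pf4 did (adjusted p = 0.024).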
